A study of Mus musculus with 74 samples.

Results

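The comparison asks how mouse fibroblasts given a cocktail meant to make induced neural stem cells differed when its SOX factor was wild-type Sox17 rather than Sox2. The members were chosen by cocktail and day: the 16 libraries of 74 in the series that carried Brn4 (gene Pou3f4), Klf4 and c-Myc together with Sox17 or with Sox2, at days 4, 8, 12 and 18 on doxycycline (Dox). All were mouse embryonic fibroblasts (MEFs) with a Sox2-GFP reporter that had received lentiviruses for M2rtTA, the protein that Dox switches on, and for the Dox-inducible factors. They were kept in neural stem cell (NSC) medium with bFGF and EGF at 10 ng/mL each, and Dox was given at 1 µg/mL for 18 days. The Sox17 cells (the BKM_Sox17 groups) and the Sox2 cells (the BKM_Sox2 groups) each had 8 libraries, 2 for each day, and these groups shared the 3 other factors, the host cells and the medium. None of the 16 libraries lacked the factors, so what the cocktails shared is not measured here, and p-values measure only the spread between these libraries, which may be technical, since nothing in the labels states that a group's pair came from separate cultures.

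SOX proteins bind DNA through an HMG box that recognises a short core and bends the helix, and they usually act with a partner factor beside them. Sox2, of the SoxB1 group, is known for its part in pluripotent and neural stem cells, where it works with POU factors such as Oct4 and Brn4. Sox17, of the SoxF group, is known for endoderm, arterial endothelium and blood vessel growth.

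Values are the authors' normalized tag counts, whole numbers of which each of the 16 columns had a median of 166 and a highest value of 78139. The depth of the libraries is therefore unknown, and no detection limit is given. Replicates correlated at r = 0.935 to 0.946 on the log2 scale across genes, and all 16 libraries were closest to their own replicate. Genes listed at 0 made up 9.77% to 11.7% of a column. A log2 difference is the mean log2(value + 2) of Sox17 libraries minus that of Sox2 libraries, given with its standard error, and it understates the change of genes with low values. A gene is called higher or lower in Sox17 cells when limma's moderated test gave a Benjamini-Hochberg adjusted p below 0.05 and the difference was at least 2-fold. In bulk RNA, fewer cells of a type and less RNA per cell cannot be told apart, which holds for every difference below.

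The factors matched the labels. Sox17 stood at 9479 and 9217 at day 4, 26505 and 23871 at day 8, 8385 and 10522 at day 12 and 6994 and 4579 at day 18 in Sox17 cells, and was listed at 0 in all 8 Sox2 libraries. Sox2 ran from 1048 to 3365 (median 1764) in Sox2 cells and from 9 to 29 (median 18.5) in Sox17 cells, a log2 difference of -6.50 ± 0.17 (limma, adjusted p = 3.6e-08). The values do not separate the delivered from the cell's own transcript. The shared factors were closer, although not equal. Pou3f4, the gene of Brn4, stood at 34130 in 5 libraries of days 4 and 8 (a value 4 Sox17 libraries and 1 Sox2 library had in common). Since the columns lay on one distribution, such a shared value means the same rank in each library, not the same amount. At day 18 Pou3f4 was 3896 and 3800 in Sox17 cells against 21719 and 10068 in Sox2 cells. Averaged over days its difference of -0.93 ± 0.13 did not reach 2-fold, and it was called lower at day 12 (-1.52) and day 18 (-1.94). The day 12 call was lost in 2 of 4 fits that each left out 1 library of that day (differences -1.635 to -1.396). Klf4 (-0.37 ± 0.07) and Myc (-0.02 ± 0.06) were not called. The comparison at days 12 and 18 is thus between cocktails that also differed in the level of Pou3f4, and its part in the differences at those days was not tested.

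**Figure D1:**
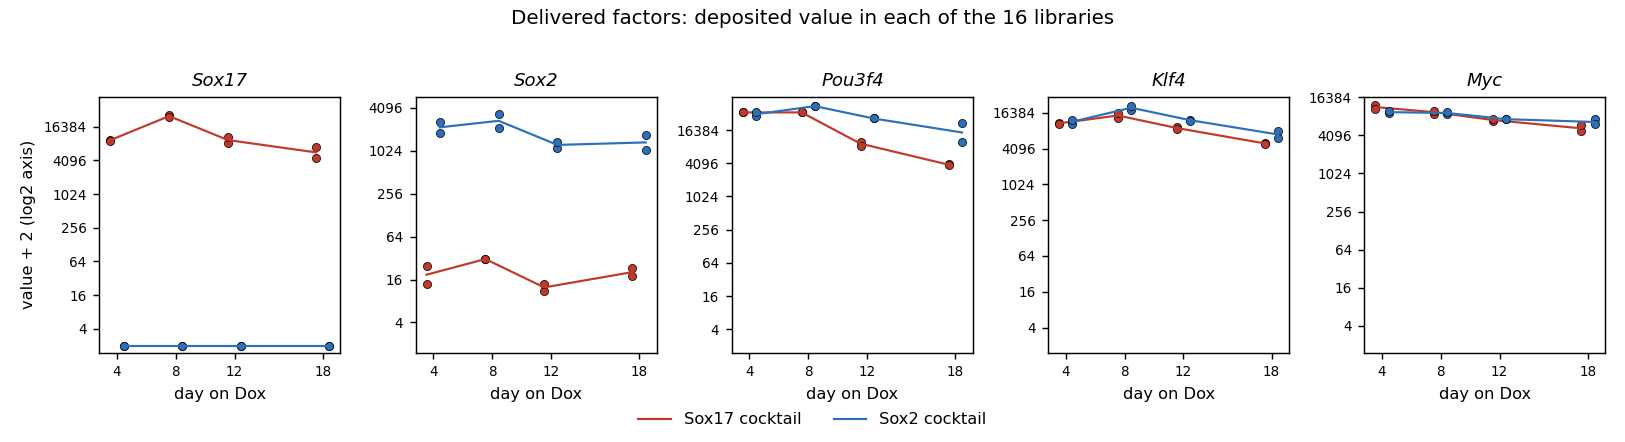
Deposited value + 2 of the 5 delivered factors (log2 axis) against day on Dox. Each point is 1 library, lines join the geometric means of the 2 replicates, red is the Sox17 cocktail and blue the Sox2 cocktail. Sox17 lies at the floor of the axis (listed at 0) in all 8 Sox2 libraries, and Pou3f4 separates at days 12 and 18.

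Averaged over the 4 days, 434 of 18884 tested genes were higher in Sox17 cells (2.30% of genes tested) and 381 were lower (2.02%). By day, 351 genes were higher at day 4 (1.86%) and 364 lower (1.93%), 527 higher at day 8 (2.79%) and 617 lower (3.27%), 276 higher at day 12 (1.46%) and 263 lower (1.39%), and 345 higher at day 18 (1.83%) and 316 lower (1.67%). The median difference over all genes lay between -0.00869 and 0.0257 in these 5 comparisons. Of the 815 genes called on average, 308 had at least 1 library at 0. With only genes above 0 in all 16 libraries in the fit, a restriction made after the values were seen, 237 were higher and 281 lower. Single days rested on 2 libraries against 2 and depended on them: the total of 715 at day 4 became 474 without replicate 2 of Sox17 day 4, the 1144 of day 8 became 613 without replicate 2 of Sox17 day 8, the 539 of day 12 became 192 without replicate 2 of Sox17 day 12, and the 661 of day 18 became 391 without replicate 1 of Sox17 day 18. Leaving out replicate 2 of Sox2 day 12 gave 246 at day 12, and leaving out replicate 1 or 2 of Sox2 day 18 gave 427 or 1093 at day 18. Of 148 calls of single genes at single days that were checked this way, 69 were lost without some library of that day, against 18 of 91 averaged calls, so the values of single days below are best read from the libraries themselves. In total 56 genes were called higher at each of the 4 days and 20 were called lower at each, against 1953 genes called at any day, and 74 were higher at one day and lower at another.

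Several genes were higher in Sox17 cells with no overlap with Sox2 cells at any day, Sema3g, Dtx1 and Cdh5 among them. Lack of overlap at any day was a condition of the rule that chose them, not a separate result. Sema3g, a secreted semaphorin made by arterial endothelium, ran from 134 to 410 (median 185) in Sox17 cells and from 0 to 5 (median 2) in Sox2 cells, a log2 difference of 5.70 ± 0.19 (limma, adjusted p = 2.2e-07). Its values were also the closest in pattern to Sox17 itself over the 16 libraries (Pearson r = 0.979), followed by Dtx1 (0.972), Plekhs1 (0.967), Pi16 (0.962) and Apba1 (0.959). Part of such a correlation is the gap between the cocktails that every gene of this group shares. Dtx1, the gene of the Notch regulator Deltex 1, ran from 65 to 280 against 0 to 4 (4.89 ± 0.28). Cdh5, the gene of VE-cadherin that holds endothelial cells together, stood at 148 and 145 at day 4, 146 and 177 at day 8, 275 and 293 at day 12 and 755 and 227 at day 18, whereas the Sox2 libraries held 3 to 20 (4.46 ± 0.29, adjusted p = 1.1e-05). The 2 day 18 libraries of Sox17 cells differed more from each other than those of any earlier day. Pi16, a peptidase inhibitor gene, ran from 911 to 2288 (median 1542.5) against 66 to 236 (3.39 ± 0.18), and Fgd5, a Cdc42 exchange factor of endothelial cells, from 69 to 381 against 12 to 27 (3.13 ± 0.18). Adgrb1, an adhesion receptor of the brain (4.20 ± 0.26, adjusted p = 6.6e-06), and Trpv1, the capsaicin receptor (3.77 ± 0.28), were also higher and chosen by this rule.

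Other genes chosen by the same rule owed their difference to libraries listed at 0. Slco4c1, an organic anion transporter gene, was 579 to 956 in Sox17 cells but 0 in 4 Sox2 libraries and 307 to 518 in the other 4. Pgr15l, a receptor gene, was 433 to 674 against 0 in 4 Sox2 libraries and 277 to 299 in the other 4, and Clrn1 was 73 to 313 against 0 in 6 of the 8. At day 12 the 2 Sox2 replicates were 0 and 114 for Clrn1 and 0 and 495 for Slco4c1, and the standard errors of their log2 differences (4.84 ± 0.89 and 4.81 ± 1.23) were several times that of Sema3g. Over all genes, 656 had 1 library at 15 or less and another at 200 or more, and 130 of them were among the 815 called on average.

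**Figure D2:**
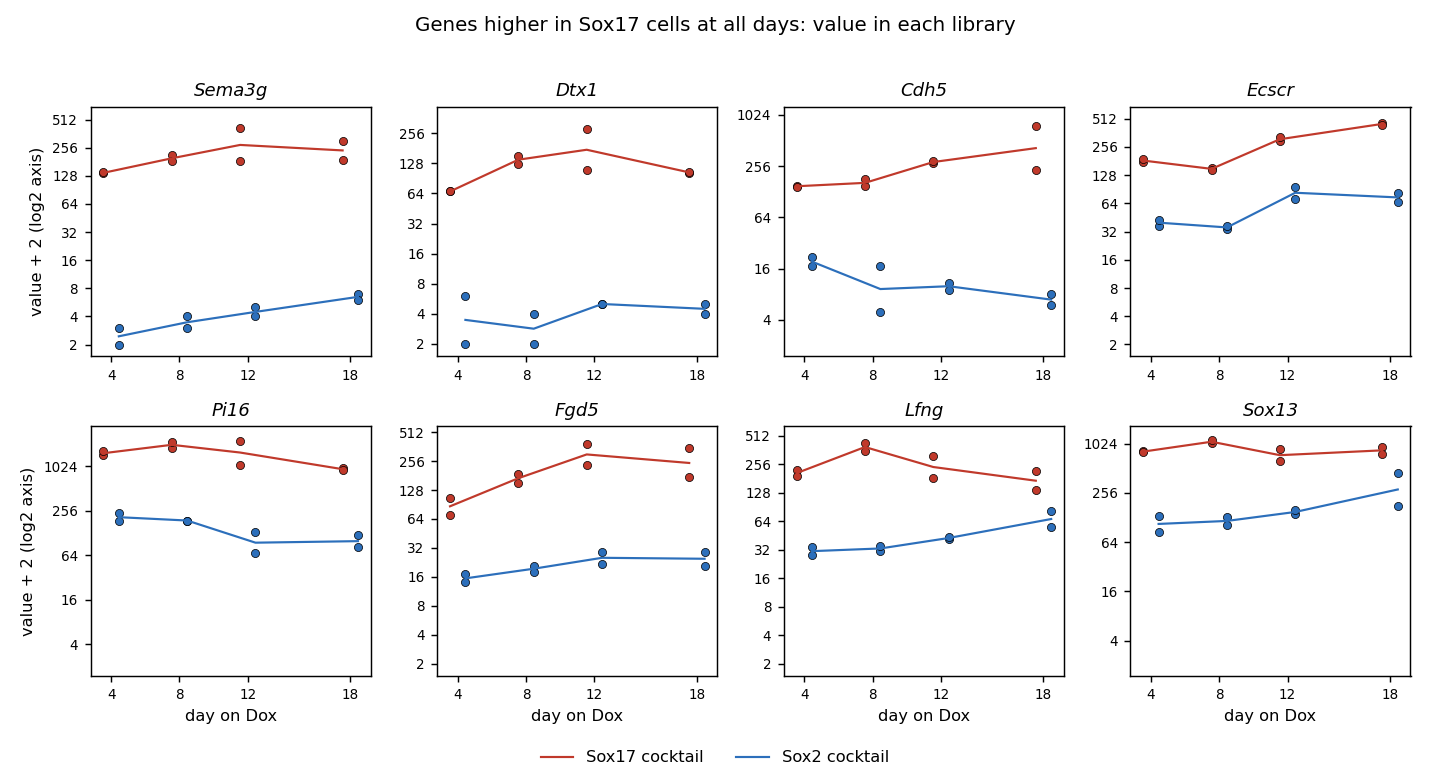
Value + 2 (log2 axis) against day on Dox for 8 genes higher in Sox17 cells, 1 point per library, lines through the geometric means of 2 replicates. In each panel all red points (Sox17 cocktail) lie above all blue points (Sox2 cocktail) of the same day, and the gap is widest for Sema3g and Dtx1.

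The promoters of 4 such genes are shown because the 2 cocktails differ in the SOX factor: 3 genes that were higher at every day and, for contrast, Sprr1a, which was lower at every day. The windows run from 250 bases before to 50 bases after the start in RefSeq (GRCm38.p6), 5′ to 3′ on the gene's strand. Capitals mark the letters ACAANG or, on the opposite strand, CNTTGT, which hold the core that SOX factors bind.
Sema3g (chr14:31217623-31217922, plus strand): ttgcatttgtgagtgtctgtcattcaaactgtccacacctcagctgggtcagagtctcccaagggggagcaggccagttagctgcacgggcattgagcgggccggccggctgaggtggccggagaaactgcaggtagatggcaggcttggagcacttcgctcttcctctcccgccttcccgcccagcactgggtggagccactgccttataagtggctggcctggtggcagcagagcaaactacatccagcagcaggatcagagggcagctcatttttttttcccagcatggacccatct
Lfng (chr5:140607091-140607390, plus strand): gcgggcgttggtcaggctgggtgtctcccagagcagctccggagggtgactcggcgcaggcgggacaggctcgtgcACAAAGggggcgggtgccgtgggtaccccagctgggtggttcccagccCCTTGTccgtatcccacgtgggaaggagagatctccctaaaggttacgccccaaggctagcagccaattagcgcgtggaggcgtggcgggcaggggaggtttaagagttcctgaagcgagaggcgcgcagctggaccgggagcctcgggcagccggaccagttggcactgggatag
Pi16 (chr17:29318632-29318931, plus strand): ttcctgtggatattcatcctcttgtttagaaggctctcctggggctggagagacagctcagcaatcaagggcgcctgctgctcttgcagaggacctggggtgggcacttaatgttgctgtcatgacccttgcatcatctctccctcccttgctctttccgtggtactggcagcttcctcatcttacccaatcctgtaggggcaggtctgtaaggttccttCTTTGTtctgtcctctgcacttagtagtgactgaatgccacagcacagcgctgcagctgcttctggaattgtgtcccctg
Sprr1a (chr3:92485832-92486131, minus strand): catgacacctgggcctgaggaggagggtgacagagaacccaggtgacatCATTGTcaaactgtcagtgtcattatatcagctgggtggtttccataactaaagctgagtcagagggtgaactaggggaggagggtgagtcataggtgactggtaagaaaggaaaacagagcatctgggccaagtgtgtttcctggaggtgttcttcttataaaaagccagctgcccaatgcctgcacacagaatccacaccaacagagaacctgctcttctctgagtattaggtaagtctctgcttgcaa
Lfng held 2 matches, Pi16 and Sprr1a 1 each, and Sema3g none. Among genes with a window, the first one listed for each, 43.9% of 296 genes higher in Sox17 cells, 33.3% of 279 lower genes and 35.8% of 13469 tested genes had at least 1 match. These shares are a description of short windows, with no test, and a match is not evidence of binding.

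Genes of the vessel wall were higher in Sox17 cells or not called, and none was lower. Of 13 tested endothelial markers 3 were higher on average (median difference 0.50 against 0.0119 over all genes tested), namely Cdh5, Ecscr and Kdr. The share of all genes tested that were higher was 2.30%. Ecscr, an endothelial surface protein gene, ran from 145 to 459 (median 240) against 32 to 94 (median 53), a difference of 2.19 ± 0.08 (adjusted p = 2.4e-07), and was called at each of the 4 days. Kdr, the gene of VEGF receptor 2, ran from 149 to 230 against 65 to 102 (1.03 ± 0.10), and its call was lost in 3 of 16 fits that each left out 1 library (without replicate 2 of Sox2 day 12 or day 18, or replicate 1 of Sox2 day 4; lowest difference 0.96). The count was 2 of 13 at days 4 and 8, 4 at day 12 and 5 at day 18. The day 4 call of Cdh5 was lost in all 4 fits without 1 library of that day (differences 2.755 to 3.127). Flt1, another VEGF receptor gene, was higher at day 12 (1445 and 1417 against 729 and 689, 1.01 ± 0.11), and Tek, the angiopoietin receptor gene, at day 18 (1089 and 874 against 282 and 230, 1.93 ± 0.14). Tie1 was called at day 18 as well (7 and 52 against 2 and 1, 2.67 ± 0.70), a difference that leaned on 1 library. The call of Flt1 at day 12 was lost without some library of that day. Pecam1, the common endothelial marker CD31, was low in both (17 to 40 against 9 to 26) and not called on average (0.50 ± 0.22). MEFs themselves held Kdr at 382.5, Flt1 at 2567.5 and Ecscr at 223 (means of 2 libraries), but Cdh5 at 3. Summed over the 15 list genes in the table, the level was 2922 to 5527 in Sox17 cells, 1971 to 2322 in Sox2 cells and 3581 to 3944 in MEFs.

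Among other genes tied to SoxF in vessels, Notch4 (1.06 ± 0.23) and Lmo2 (1.45 ± 0.26) were higher on average, and Fli1, an ETS factor, was called at days 12 and 18 only. Fli1 stood at 136 and 127 against 101 and 83 at day 4 and at 129 and 100 against 38 and 53 at day 18. Its calls at days 12 and 18 were each lost without some library of that day. Notch4, a receptor gene, was highest at day 4 (923 and 897 against 180 and 274), and its averaged call was lost in 5 of 16 fits without 1 library, namely replicate 2 of Sox17 day 12 or replicate 1 of Sox2 day 4, 8 or 12 or replicate 2 of Sox2 day 18 (lowest difference 0.88). Sox7, the other SoxF gene tested, was not called (-0.39 ± 0.24).

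Notch signalling passes between neighbouring cells when a Delta or Jagged ligand engages a Notch receptor, and Fringe enzymes set which ligand a receptor answers to. Of 14 tested Notch genes 5 were higher in Sox17 cells and none lower (median 0.61), against 2.30% higher of all genes tested. The Fringe genes Lfng and Mfng were among them. Lfng stood at 219 and 189 at day 4, 348 and 426 at day 8, 181 and 308 at day 12 and 214 and 133 at day 18, against 26 to 79 in Sox2 cells (2.53 ± 0.15, adjusted p = 5.4e-06). Mfng ran from 15 to 116 against 0 to 7 (2.97 ± 0.24). The ligand gene Dll1 was higher at day 4 (10 and 9 against 2 and 0) and day 8 (49 and 52 against 2 and 2) and lower at day 18 (3 and 7 against 18 and 15). Its calls at days 4 and 18 were each lost without some library of that day. Heyl, a target gene, was low in both (1 to 17 against 0 to 5), and its call and that of Dll1 were lost with a pseudocount of 8. The receptor gene Notch1 was higher at days 4 and 8, with 896 and 923 against 466 and 435 at day 4 (1.01 ± 0.13, short of 2-fold without replicate 2 of either day 4 group) and 1381 and 1567 against 490 and 410 at day 8 (1.71 ± 0.13), and stood at 1106 and 1327 against 1120 and 1264 at day 18. Hes1, the general Notch target, was not called on average (-0.29 ± 0.10), nor were Notch2, Notch3 and Jag1. With the filter at 50, 3 of the Notch genes were called, and with only genes above 0 in all libraries 2.

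Of 8 tested genes of the SoxC, SoxD and SoxE groups 3 were higher and none lower (median 0.58), against 2.30% higher of all genes. Sox13, a SoxD gene, ran from 619 to 1120 (median 850) in Sox17 cells and from 84 to 442 (median 135.5) in Sox2 cells (2.51 ± 0.18, adjusted p = 1.7e-05). Sox8, a SoxE gene of neural crest and glia, stood at 121 and 125 at day 8 against 3 and 3 and averaged 2.57 ± 0.13, and Sox5 was higher at days 4 and 8 (282 and 262 against 85 and 89 at day 4) with 1.09 ± 0.06 on average. Sox4 and Sox11, abundant SoxC genes at 1142 to 4389, were not called (0.22 ± 0.08 and 0.13 ± 0.08). Sox1, the SoxB1 relative of Sox2, was higher in Sox17 cells early, at 50 and 51 against 1 and 1 at day 4 and 424 and 383 against 19 and 19 at day 8, and came to 46 and 48 against 68 and 53 at day 18. In primary NSCs its mean was 1050.

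Col4a1 and Col4a2, which encode the main collagen IV chains of basement membranes, were higher in Sox17 cells on average, by 1.34 ± 0.09 and 1.27 ± 0.04. Col4a2 stood at 23871 and 26505 at day 8 against 5078 and 4963, the widest gap, and at 29410 and 26505 against 23871 and 23871 at day 18, where neither gene was called. Of the 18 tested genes of the endoderm list, to which both belong, 4 were higher on average (median 0.34), against 2.30% of all genes. The other 2 were Lama1, the laminin α1 gene, and Foxa2, a pioneer factor of endoderm. At day 18 Lama1 was called lower (-1.15 ± 0.26, a call lost without replicate 2 of Sox17 or replicate 1 of Sox2 of that day), and Foxa2 was the 1 gene of the list that was higher. Foxa2 was listed at 0 in all 4 day 4 libraries and in the Sox2 libraries of days 12 and 18, and reached 7 and 7 at day 8, 17 and 31 at day 12 and 39 and 95 at day 18 in Sox17 cells. The endoderm genes Gata6 (-0.09 ± 0.19) and Foxa1 (-0.70 ± 0.28) were not called, and Afp was listed at 0 in 13 of 16 libraries.

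Smooth muscle and myofibroblast genes were higher on average for 3 of 12 genes (median 0.70): Acta2, the smooth muscle actin gene (1250 to 6752 in Sox2 cells and 3143 to 7807 in Sox17 cells, 1.02 ± 0.18), Tagln (1.03 ± 0.22) and Myl9 (1.14 ± 0.22). At day 18 replicate 2 of Sox2 cells held 6752 of Acta2 where replicate 1 held 2740. All 3 stood near the 2-fold limit, and each lost its call in at least 1 fit without a library, with 0.86, 0.81 and 0.96 without replicate 1 of Sox2 day 18. Of 28 fibroblast matrix genes only Postn was called on average (1.04 ± 0.23, lost in 5 of 16 such fits), while their median was 0.38. Of all genes tested 2.30% were higher. By day, Vim was higher and S100a4 lower at day 4, and Col5a2, Col6a1 and Pdgfrb higher and S100a4 lower at day 8. None was called at day 12, and Twist2 was lower at day 18. The summed level of the 28 genes was 237674 to 262682 in Sox17 cells against 149930 to 200970 in Sox2 cells at day 4. It was 350117 to 358883 against 203135 to 236868 at day 8, and 498210 to 516528 against 421003 to 508978 at day 18.

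A minority of neuronal genes differed. Of 15 tested neuron genes 5 were higher in Sox17 cells on average, none was lower and 10 were not called. The median of the list was 0.07, close to that of all genes. Among all genes tested 2.30% were higher and 2.02% lower on average. Tubb3, the neuronal β-tubulin gene, stood at 6372 and 6068 at day 8 against 749 and 645 (3.16 ± 0.39) and at 729 and 502 against 837 and 297 at day 18. Elavl3, an RNA-binding protein gene of neurons, went from 4 and 11 at day 4 to 408 and 494 at day 8, 129 and 202 at day 12 and 66 and 34 at day 18 in Sox17 cells, whereas the Sox2 libraries held 0 to 35 (3.16 ± 0.29). Insm1 (214 and 294 against 6 and 20 at day 8), Stmn2 (6510 and 6878 against 1605 and 2263) and Neurog2 (141 and 186 against 17 and 14) were higher at day 8 too. The call of Stmn2 was lost without some library of that day. At day 18 none of the 15 was higher, Neurog2, a proneural factor, was lower (8 and 12 against 29 and 26), and the median was -0.55. The day 18 call of Neurog2 was lost without some library of that day. Of 16 tested neural stem cell genes 1 was higher (Sox1) and 2 were lower, the delivered Sox2 among them. Nes ran from 543 to 1861 against 493 to 1762, and Pax6 (0.75 ± 0.57) was not called. The summed level of the 26 genes of that list was 6142 to 7824 in Sox17 cells and 8411 to 10829 in Sox2 cells (the delivered Sox2 included). In MEFs it was 7397 to 7630, and in primary NSCs 255352 to 262657.

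Cornified envelope genes harden the outer layer of squamous epithelium. Of 25 tested keratinocyte and cornified genes 10 were lower in Sox17 cells on average and 2 higher (median -0.85). Among all genes tested 2.02% were lower and 2.30% higher. By day, 7 were lower and 1 higher at day 4, 13 and 1 at day 8, 4 and 2 at day 12, and 3 and 3 at day 18, where the median was -0.20. The 13 of day 8 became 5 without replicate 2 of Sox17, 7 without replicate 2 of Sox2 and 4 with all 54 libraries in the fit. From day 4 to day 18 the difference became more positive for 4 of the 25 (Krt14, Krt13, Lor and Sfn) and more negative for Krt6a. Lypd3, a surface protein gene of upper epidermis, stood at 58 and 66 at day 4, 551 and 288 at day 8, 847 and 324 at day 12 and 105 and 201 at day 18, against 263 and 296, 1887 and 1762, 1715 and 1875, and 546 and 743 in Sox2 cells (-2.05 ± 0.23, adjusted p = 0.00015). Both cocktails peaked at days 8 to 12, and the libraries did not overlap at any day, which the rule that chose Lypd3 required. Sprr1a, an envelope precursor gene, ran from 623 to 8533 (median 4979) against 2112 to 29407 (median 14112.5), with -1.59 ± 0.12 and a call at each day. The day 18 call of Sprr1a was lost without some library of that day. Sprr1b (-1.65 ± 0.19), Ivl, the involucrin gene (-1.66 ± 0.20), Lor, the loricrin gene (-1.56 ± 0.25), and Sfn (-1.24 ± 0.12) were lower as well. Trp63, the master regulator of stratified epithelium, was 18 and 19 at day 4 against 78 and 60 (-1.12 ± 0.18 on average, and -0.95, below 2-fold, without replicate 2 of Sox2 day 18). Flg (-1.03 ± 0.24) and Krt5 (-1.19 ± 0.37) lost their calls in 6 and 12 of 16 fits without 1 library.

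Krt6a, a keratin of activated and wounded epidermis, was higher in Sox17 cells at every day, with 1172 and 1209 against 46 and 53 at day 4 and 2222 and 1755 against 790 and 841 at day 18 (2.43 ± 0.13, adjusted p = 4e-06). The day 18 call of Krt6a was lost without some library of that day. Its close relative Krt6b was lower (-1.18 ± 0.21). The 2 genes are near copies of each other, so reads that the authors' counting assigned to one may belong in part to the other. Krt13 was higher on average (1.05 ± 0.17) and, among single days, called at day 18, when it stood at 57 and 95 against 7 and 8. Its averaged call was lost in 3 of 16 fits without 1 library (replicate 2 of Sox17 day 12 or day 18, or replicate 1 of Sox2 day 8; lowest difference 0.93). Krt14, the basal keratin, was not called (-0.11 ± 0.09). Summed over the list, the level was 11459 to 42673 in Sox17 cells and 20091 to 83711 in Sox2 cells, against 595 to 618 in MEFs.

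**Figure D3:**
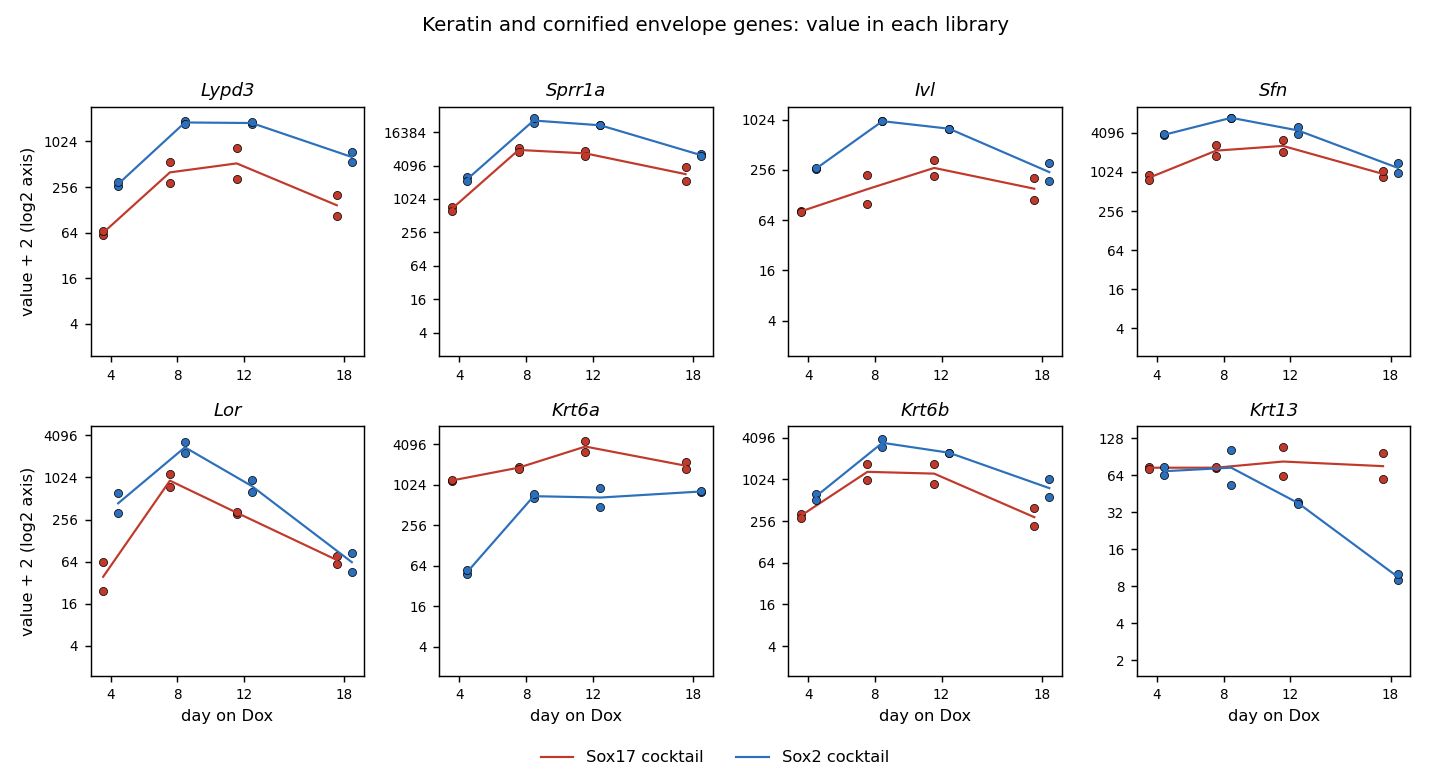
Value + 2 (log2 axis) against day on Dox for 8 keratin and cornified envelope genes, 1 point per library, lines through the geometric means of 2 replicates. Lypd3, Sprr1a and Krt6b lie lower in Sox17 cells (red) at each day, whereas Krt6a lies higher, and Krt13 lies higher at days 12 and 18, of which day 18 was called.

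Other genes with the deepest and most lasting decreases included several that epithelia use. Tns4 (-2.03 ± 0.40), Cysrt1 (22 to 88 against 74 to 490, -1.97 ± 0.16), Tmem79, a barrier gene of the epidermis (-1.95 ± 0.23), the adaptor gene Grb7 (-1.92 ± 0.23) and the kallikrein gene Klk13 (-1.90 ± 0.19) were lower. They did not overlap at any day, as the rule that chose them required. Cnpy1 (-2.93 ± 0.33) climbed from 88 and 103 at day 4 to 1023 and 754 at day 18 in Sox2 cells and reached 81 to 115 in Sox17 cells from day 8 on. Epgn, an EGF family ligand gene, was listed at 0 in both Sox17 libraries of day 4 and ran from 111 to 288 later, against 124 to 345. Slitrk4 was listed at 0 in 3 Sox17 libraries of days 12 and 18 and ran from 157 to 283 in Sox2 cells. The transcript 4930550L24Rik was listed at 0 in all 8 Sox17 libraries and at 20 to 204 in Sox2 cells, and its pattern was the closest to that of Sox2 (r = 0.953).

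Epithelial junction genes were lower in Sox17 cells at days 4 and 8 and, for some of them, higher at day 18. These genes encode cadherins, claudins, desmosome proteins, simple keratins and the factors that switch them on, and their gain marks the passage of fibroblasts to an epithelial state. Of 24 genes, 13 were lower and none higher in Sox17 cells at day 4 (median -1.26), 16 lower and none higher at day 8 (median -1.29), 2 lower and 1 higher at day 12 (median -0.53), and none lower and 6 higher at day 18 (median 0.27). Among all genes tested 1.93% were lower at day 4, 3.27% at day 8 and 1.39% at day 12, and 1.83% were higher at day 18. Cdh1, the E-cadherin gene, stood at 509 and 499 against 1505 and 1345 at day 4, 1725 and 1389 against 4240 and 3985 at day 8, 2180 and 1509 against 2653 and 2820 at day 12, and 1216 and 1513 against 874 and 1160 at day 18. Its differences were -1.49 ± 0.19, -1.41 ± 0.19, -0.59 ± 0.19 and 0.43 ± 0.19, of which the first pair was called. Epcam stood at 71 and 50 against 144 and 114 at day 4 (-1.08 ± 0.29) and at 664 and 985 against 174 and 234 at day 18 (1.99 ± 0.29). Both were called, but the call of day 4 was lost in all 4 fits without 1 library of that day (differences -0.83 to -1.32), whereas that of day 18 was kept in all 4. Cldn7 went from 36 and 28 against 128 and 120 at day 4 to 143 and 179 against 56 and 75 at day 18, and Lad1, Esrp1, Cldn6 and Tjp3 were higher at day 18 too. The calls of Cldn7 at both days and of Lad1 and Esrp1 at day 18 were each lost without some library of that day. Grhl3, a factor of barrier formation, stayed lower at days 4, 8 and 12 (-1.54 ± 0.13 on average), with a day 12 call that was lost without some library of that day. In Sox2 cells the summed level of the 24 genes was 75924 to 79600 at day 8 and 16156 to 20388 at day 18. In Sox17 cells it was 24596 to 31886 and 18205 to 22765, and the ranges of day 18 overlapped.

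The direct test, the day 18 difference minus the day 4 difference, called 14 of the 24 genes more positive at day 18 and none more negative (median 1.83 against 0.0227 over all genes tested, of which 2.94% were more positive). These counts depended on single libraries of the days they rest on. At day 4 the 13 became 5 without replicate 2 of Sox17, 6 without replicate 1 of Sox2 and 8 without replicate 2 of Sox2. At day 8 the 16 became 7 without replicate 2 of Sox17, and at day 18 the 6 became 3 without replicate 2 of Sox17. The 14 ran from 10 to 16 over the 8 fits without 1 library.

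**Figure D4:**
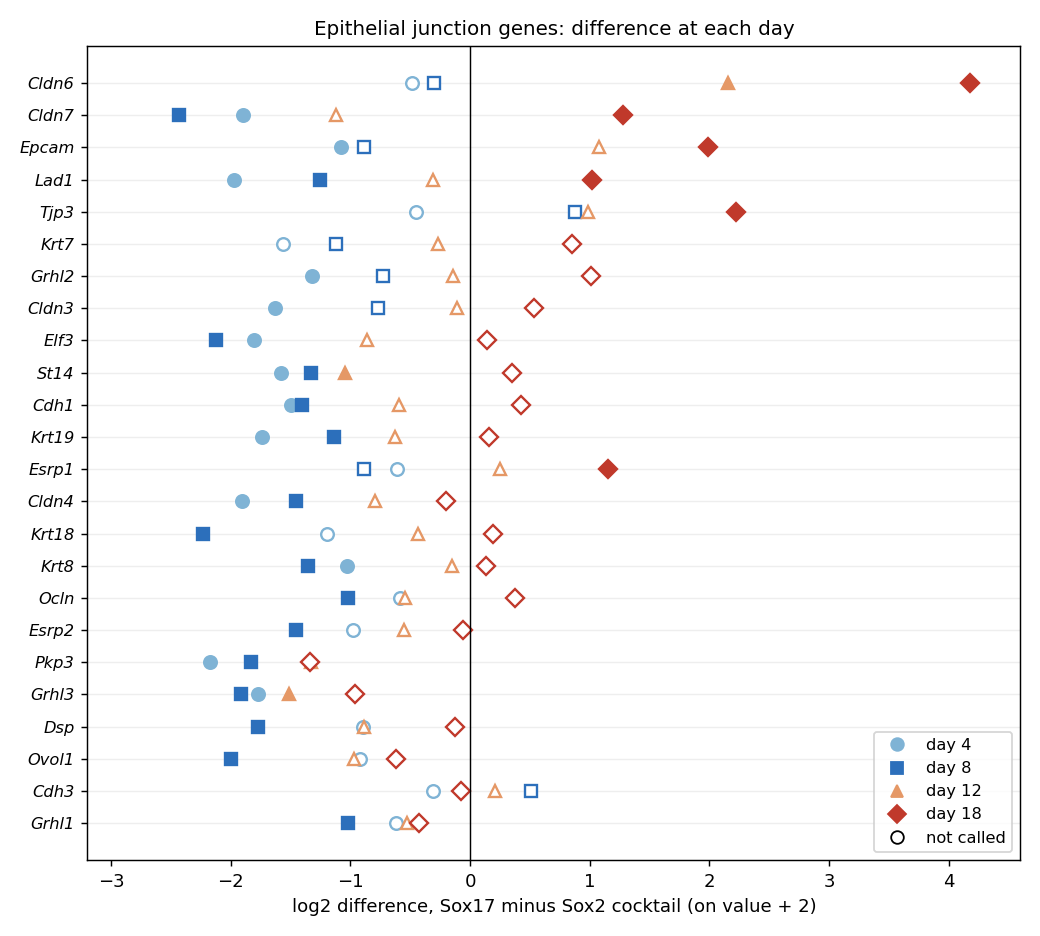
Log2 difference (Sox17 minus Sox2 cocktail, on value + 2) of 24 epithelial junction genes at each day, ordered by the change from day 4 to day 18. Filled symbols were called and open ones were not; day 4 (circles) and day 8 (squares) lie mostly left of 0 and day 18 (diamonds) mostly around or right of it.

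Over all genes, 556 had a more positive difference at day 18 than at day 4 (2.94% of genes tested) and 473 a more negative one (2.50%). With the columns rescaled by their median ratio the same split was 43.6% more positive of those called, against 54% with the values as deposited. Genes that turned from higher to lower included Lama1, which stood at 2516 and 2635 against 130 and 166 at day 4 and at 509 and 303 against 1075 and 707 at day 18 (change -5.26 ± 0.37, adjusted p = 6.9e-05). Cass4, an adaptor of focal adhesions, went from 373 and 386 against 21 and 27 to 92 and 42 against 226 and 114 (-5.22 ± 0.53). Esx1, a homeobox gene known from placenta, went from 32 and 36 against 2 and 0 to 91 and 65 against 752 and 169, with its peak of 1107 and 1014 at day 8 in Sox17 cells. Adgrg1, an adhesion receptor gene that is abundant in NSCs (mean 23916), went the other way, from 12 and 9 against 19 and 16 to 226 and 454 against 14 and 9 (5.25 ± 0.74). Pcdhgc4, a clustered protocadherin gene, went from 160 and 137 against 776 and 629 to 1534 and 953 against 62 and 218 (5.57 ± 0.65). These 5 were chosen among genes above 0 in all libraries, or for their lists, after the values were seen.

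**Figure D5:**
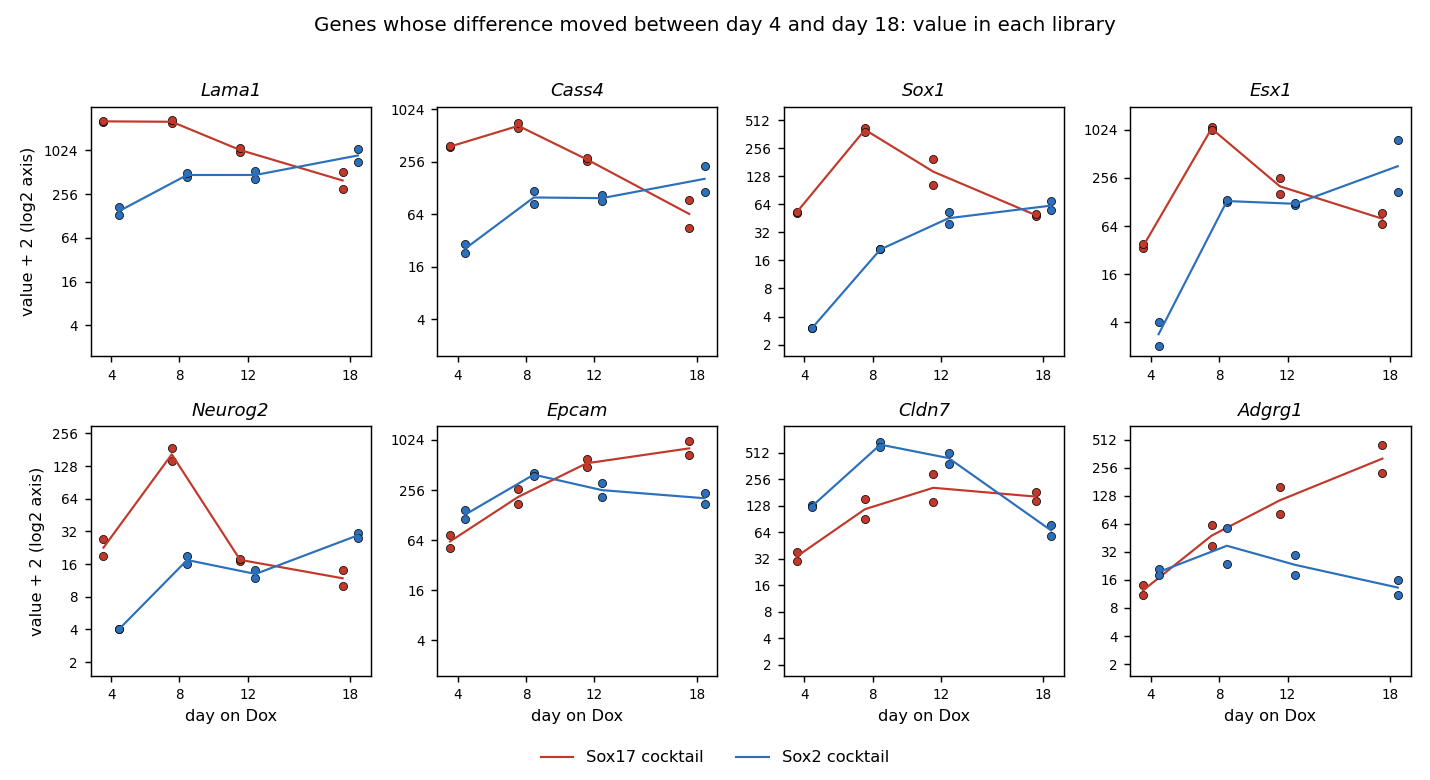
Value + 2 (log2 axis) against day on Dox for 8 genes whose difference between cocktails changed from day 4 to day 18, 1 point per library, lines through the geometric means of 2 replicates. Lama1, Cass4, Esx1 and Neurog2 cross from higher to lower in Sox17 cells (red), and Epcam and Cldn7 cross the other way.

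Transcript length moved with this comparison. With genes split by transcript length into 5 sets of equal size, the shortest set (63 to 1571 bases) had a median difference of -0.124 at day 4, 0.0412 at day 8, 0.111 at day 12 and 0.161 at day 18, and a median change of 0.298, with 159 genes more positive and 55 more negative. In the longest set the median change was -0.0699, with 69 more positive and 125 more negative. Short housekeeping genes such as Rps28 (-1.66 at day 4 and 1.55 at day 18), Rpl28 (-1.54 and 1.29), Rps29 (-1.30 and 1.02) and Tmsb10 (-1.60 and 2.30) were called at both days in opposite directions. The calls of Rps29 and Tmsb10 at both days and of Rps28 at day 18 were each lost without some library of that day. With each library centred within 20 bins of transcript length, a setting added after the values were seen, 969 genes were called against 1029. In that setting 301 of 316 results for single genes kept direction and call, 14 lost the call and 1 (Myc) reversed.

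Genes singled out by size at 1 day were mostly genes listed at 0 in 1 group. At day 4 Ccl20, a chemokine gene, was 0 in both Sox2 libraries and 664 to 894 in all other 14, and Tmem45a2 was 0 in the same pair and 394 to 648 elsewhere. Ccr3 was 0 in both Sox17 libraries of day 4 and in 1 Sox17 library of day 18, and 277 to 622 in the other 13. Xkr9 was 0 in all Sox17 libraries and in the Sox2 libraries of days 8 and 18, and 306 to 453 in the rest, and Fstl5 was 0 in all Sox2 libraries and 400 to 532 in 5 of the 8 Sox17 libraries. At day 8 Zfp936 was 0 in both Sox2 libraries but 323 to 476 at their other days, and Cnbd1 was 427 and 328 in both Sox2 libraries and 3 to 6 in the other 14. Similar steps held for Vmn2r88, Skint10 and Iqub at day 8, Prl7a1, Prl7d1 and Olfr8 at day 12, and Ube2u, 4933400A11Rik and Olfr982 at day 18. For such genes no fold is given here. Among genes above 0 in all libraries, day 8 was led by Trpv1 (355 and 437 against 10 and 4), Pth1r, the parathyroid hormone receptor gene (838 and 821 against 37 and 17, 4.93 ± 0.40), and Adgrb1 (489 and 628 against 17 and 19).

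Some chemokine and interferon genes were higher in Sox17 cells at day 4. Of 18 tested chemokine and interleukin genes 5 were higher and 2 lower in Sox17 cells at day 4, against 1.86% and 1.93% of all genes. Among the higher were Ccl2 (1291 and 869 against 417 and 372, 1.42 ± 0.18), Ccl7 (1095 and 1106 against 517 and 462, 1.17 ± 0.24) and Cxcl2 (40 and 30 against 14 and 16). Of 16 interferon response genes 3 were higher at day 4 (Oasl2, Ddx58 and Cxcl10) and none at any later day, and their median was 1.06 at day 4 and -0.37 at day 8. Cxcl10 stood at 56 and 82 against 14 and 9. The calls of Ccl7, Cxcl2, Oasl2, Ddx58 and Cxcl10 were each lost without 1 library of day 4, and Ccl2 kept its call in those 4 fits.

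Wnt genes were lower in Sox17 cells for 7 of 26 tested genes and higher for 1 (median -0.21), against 2.02% and 2.30% of all genes. Wnt ligands stabilise β-catenin, which acts through Lef1 and Tcf factors, and Notum, Dkk1 and Sfrp proteins restrain the pathway. Lef1 ran from 20 to 58 (median 41) against 70 to 255 (median 102.5) and was called at each of the 4 days (-1.46 ± 0.14, adjusted p = 8e-05). Its calls at days 4, 8 and 12 were each lost without some library of that day. The ligand genes Wnt7a (-1.21 ± 0.15), Wnt7b (-1.26 ± 0.33), Wnt4 (-1.13 ± 0.17) and Wnt10a (-1.09 ± 0.29; 12 at most) and the feedback gene Notum (1 to 45 against 9 to 104, -1.69 ± 0.17) were lower. Sfrp2 was lower on average (-1.10 ± 0.31) and at day 18 (11 and 16 against 84 and 185). The averaged calls of Wnt10a and Sfrp2 were lost without some library. Axin2, the general target gene, was 27 to 74 against 43 to 163 and short of 2-fold (-0.85 ± 0.22). Dkk1, an inhibitor gene, was listed at 0 in the 4 Sox2 libraries of days 12 and 18, where Sox17 cells held 15 to 48.

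Lists with no gene called on average were those of BMP and Id genes (17 tested), LIF and STAT3 (12), Hox (33), interferon response (16), cell cycle (20), oligodendrocyte (5) and skeletal muscle (4). Of 15 tested pluripotency genes 2 were higher and 3 lower on average (median 0.22), against 2.30% and 2.02% of all genes. Nr0b1 (6 to 53 against 1 to 3, 2.15 ± 0.16) and Lin28a (7 to 33 against 0 to 5, 2.38 ± 0.24) were higher at each day, and Utf1 (1 to 18 against 1 to 58, -1.22 ± 0.23), Dppa4 (listed at 0 in 7 of 8 Sox17 libraries and in 3 Sox2 libraries) and Tdgf1 (0 in 7 of 8 Sox17 libraries and in 3 Sox2 libraries) were lower on average. All 5 stood at low values. The averaged call of Dppa4 was lost in 13 of 16 fits without 1 library (differences -2.476 to -1.487). Calls of Nr0b1 at days 12 and 18 and of Lin28a at days 4, 8 and 12 were each lost without some library of that day. Among markers of other cells the cultures could hold, Csf1r, the macrophage receptor gene, was lower (1 to 38 against 5 to 50, -1.16 ± 0.32), a call lost in 6 of 16 fits without 1 library, and the remaining 9 tested macrophage and blood genes were not called on average. At day 18 Ptprc (1 and 1 against 245 and 118) and Laptm5 (27 and 22 against 123 and 128) were lower and the list's median was -1.91. The call of Ptprc was lost in 3 of 4 fits without 1 library of that day, all but that without replicate 2 of Sox2. The summed level of the 16 genes of that list was 244 to 298 at day 18 in Sox17 cells and 635 to 1759 in Sox2 cells, and the part of such cells in the other differences of that day was not tested. Over all days it was 205 to 1751 in Sox17 cells, 455 to 1759 in Sox2 cells and 4703 to 5173 in MEFs.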

How the data were processed

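RNA was sequenced from 16 libraries, 2 for each of 4 days and 2 cocktails. The authors aligned reads with Bowtie2 2.0 to mm10 and used RSEM, per the submitters' processing notes. The deposited values are scores: normalized tag counts that the authors rounded to whole numbers, with all columns on one distribution. The normalization method and the depth are not given in the sources used here, so no count model was used, and 1 column of no labelled sample was not used.

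limma 3.58.1 (R 4.3.3) was fitted to log2(value + 2) with 8 groups, a variance trend and no block, for 18884 genes at 10 or more in at least 2 of 16 libraries. Each of 6 comparisons was adjusted over all genes by Benjamini-Hochberg. The code was tested on simulated data.

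Named genes were the delivered factors, the 12 largest averaged changes in each direction without overlap at any day and with a mean of at least 100, the 5 largest per day, the 6 largest changes from day 4 to day 18, up to 4 called and 4 uncalled members per list, and the 5 genes most correlated with Sox17 or Sox2. Other genes named (short genes, genes above 0 in all 16 libraries, list members at single days) were chosen after their values were seen. Some genes that the rule chose are not reported here. Members and lists were chosen with earlier results of these data known. Differences between replicates 1 and 2 correlated at 0.0234, -0.0328, 0.0287 and -0.00313 between cocktails at days 4, 8, 12 and 18, so replicate numbers did not pair the libraries. Alternatives covered the pseudocount, filter, scaling, libraries fitted, variance model, block and single libraries.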

Additional observations from a re-analysis of the deposited data

Results flagged for a closer look

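The difference between cocktails changed from day 4 to day 18, by limma's test of the change itself, for each gene below (log2, day 18 minus day 4, adjusted p below 0.05). Of 50 such calls 16 were lost without some library: Vmn2r7, Bmp15, Gm20390, Olfr1312, Gm5615, Gm7945, Dkk1, Cldn3, Cldn4, Grhl2, Krt8, Elf3, Tek, Cdh5, Lfng and Sfrp2. The largest changes were those of genes with some libraries at 0 to 2. Their log2 values depend on the added 2 and are not read as folds. B430305J03Rik 12.58, Exosc6 9.71, Vmn2r7 8.70, Bmp15 8.52, Xkr9 7.66 and Gm20390 7.62 were more positive, and Iqub (-11.70), Olfr1312 (-10.87), Gm5615 (-10.52), Tmem45a2 (-8.51), Ccl20 (-8.39) and Gm7945 (-8.19) more negative.

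Among genes of epithelial junctions the change was 1.92 for Cdh1, 3.07 for Epcam, 2.16 for Cldn3, 1.71 for Cldn4, 4.66 for Cldn6, 3.18 for Cldn7, 2.68 for Tjp3 and 1.76 for Esrp1. It was 2.33 for Grhl2, 1.16 for Krt8, 1.90 for Krt19, 1.93 for St14, 1.94 for Elf3 and 2.99 for Lad1. The cornified genes Lor (3.59) and Sfn (1.88) and the keratin gene Krt13 (2.90) were more positive too, while Krt6a was more negative (-3.26).

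Vessel genes with a larger difference at day 18 were Cdh5 (2.97) and Tek (1.10). The Notch genes Dll1 (-3.48) and Lfng (-1.39), the neural genes Sox1 (-4.47) and Neurog2 (-3.82), and the matrix genes Lama1 (-5.26) and Col4a2 (-1.14) were more negative. So were Cass4 (-5.22), Esx1 (-5.85), Sfrp2 (-3.91) and the delivered Pou3f4 (-2.05). Adgrg1 (5.25), Pcdhgc4 (5.57), Foxa2 (4.98) and Dkk1 (4.10) were more positive. The short genes Rps28 (3.21), Rps29 (2.32), Rpl28 (2.83) and Tmsb10 (3.90) were more positive as well.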

How the results depend on the processing

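The number of genes called depended most on which libraries and genes entered the fit. With all 54 libraries of the table the counts were 538 averaged (815 with the 16 libraries), 178 at day 4 (715), 343 at day 8 (1144), 129 at day 12 (539), 132 at day 18 (661) and 121 for the change from day 4 to day 18 (1029). Without 1 library of another day (replicate 1 of the Sox2 cocktail at day 24) the same fit gave 828, 711, 1156, 575, 716 and 1016. With a replicate block the averaged count was 738, day 12 had 320, day 18 had 377 and the change had 639, and 51 of 316 results for single genes lost their call. Settings chosen after seeing the data were 2 filters and 2 centrings. Genes above 0 in all 16 libraries gave 518 averaged, of which 237 were higher. Genes at 10 or more in all 16 gave 327 averaged, 469 at day 4 and 420 at day 18. Leaving out each library in turn gave 696 to 841 averaged, 474 to 522 at day 4, 613 to 1027 at day 8, 192 to 614 at day 12, 391 to 1093 at day 18 and 747 to 1525 for the change. A left-out library leaves an arm with 1 sample, which is assumed to vary like the others. Only 3 genes reversed, none of them called on average. Myc became 0.003 with length centring and ran from -0.056 to 0.022 without 1 library, turning positive without 4 of them (0.022, 0.016, 0.005 and 0.004). Tie1 ran from -0.043 (without replicate 2 of Sox17 day 18) to 0.603, and Gata6 from -0.273 to 0.097 (without replicate 1 of Sox2 day 12). Of 7622 values for single genes 6933 kept direction and call, 681 lost the call, 1 gained it and 7 reversed. The cause of these changes was not tested. Depth is unknown, so no limit from it can be given.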

Other observations

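Some genes outside the groups above also differed between the cocktails. Gkn1, a gene of the stomach lining, was lower in Sox17 cells at days 4, 8 and 12 (93 and 76 against 180 and 162, 558 and 355 against 1199 and 1156, 471 and 406 against 1285 and 1562), with -1.26 ± 0.10 on average (limma, adjusted p = 2.7e-05). The call of day 4 was lost in 2 of 4 fits without 1 library. Fosl1, an AP-1 subunit gene, was close at day 4 (614 and 764 against 781 and 920) and lower at day 8 (134 and 98 against 477 and 496), with -1.22 ± 0.20 on average. Gdf15, a stress-induced cytokine gene, was 5 to 28 against 8 to 61 (-1.28 ± 0.21). Tfap2a, a factor of neural crest and surface ectoderm, was 40 to 106 against 50 to 538 (-1.17 ± 0.23), and Ngfr, the low-affinity neurotrophin receptor gene, 2 to 28 against 12 to 69 (-1.23 ± 0.20).

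Hand1, a factor of trophoblast and heart, was higher in Sox17 cells on average (4 to 135 against 0 to 9, 2.67 ± 0.38) and at days 4 and 8. Its day 4 call was lost without some library of that day. The replication licensing genes Mcm2 (477 and 539 against 1345 and 798, -1.03 ± 0.20) and Mcm5 (213 and 221 against 623 and 337, -1.07 ± 0.25) were lower at day 18, the only 2 of 20 cell cycle genes called at any day. Both of these calls were lost without some library of day 18, as was the averaged call of Tfap2a without some library.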
